A study of Mus musculus with 11 samples.

Results

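The 7 genes described here are Pitx1, Car4, Cited1, Cryab, Pdpn, S100g and Msl3, a list of genes carried by the endoderm of mouse naive extra-embryonic endoderm (nEnd) cultures. They were selected on their measured levels in these libraries, by name and with earlier results known, so that their levels are a description and their tests are no independent support. All 7 were among the 14185 genes tested in bulk RNA. nEnd is a stem cell culture grown on mouse embryonic fibroblast (MEF) feeders in RACL medium (Activin A, CHIR99021 and LIF), and it is used as a model of primitive endoderm (PrE). The bulk data were 9 libraries of untreated OCT4-mCherry nEnd, a line with a fluorescent OCT4 protein, sorted into cells with surface PDGFRA alone (Pdgfra+), with both markers (DP) and with OCT4-mCherry alone (Oct4+), with 3 libraries in each group. The other data were 2 droplet single-cell libraries of Oct4LOF nEnd (EPUc line), in which both Oct4 alleles can be deleted with 4-hydroxytamoxifen (4OHT). These cells had been sorted for PDGFRA and then grown in the presence (+4OHT) or absence (-4OHT) of the drug. By the paper, this first period was followed by a longer one in normal RACL medium before the cells were taken. Each condition had a single library, so that no test between them was possible. In both experiments the cells came from 1 line, live cells were taken by DAPI exclusion, and feeder cells could be carried over.

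The list joins proteins of different roles. Pitx1 is a paired-like homeodomain transcription factor known from hindlimb and pituitary development, Cited1 is a transcriptional co-activator that binds CBP and p300, and Msl3 is a chromodomain subunit of the MSL histone acetyltransferase complex. Car4 is a carbonic anhydrase anchored to the outer face of the plasma membrane, Pdpn is the mucin-like membrane glycoprotein podoplanin, S100g is the small calcium-binding protein calbindin-D9k, and Cryab is a small heat shock protein. The endoderm of the blastocyst gives visceral endoderm, an absorptive epithelium that takes up protein through the receptors cubilin (Cubn) and amnionless (Amn), and parietal endoderm, which lays down a thick basement membrane rich in collagen IV and laminin.

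Cited1 (chrX:102247381-102252181, minus strand), S100g (chrX:162961992-162964599, minus) and Msl3 (chrX:168654117-168673898, minus) lay on the X chromosome in the GENCODE vM21 annotation of GRCm38. This was 3 of 7 members, against 3.5% of the 13846 tested genes that matched the annotation. The others were Pitx1 (chr13:55825051-55836192, minus), Car4 (chr11:84957786-84966044, plus), Cryab (chr9:50751325-50756636, plus) and Pdpn (chr4:143267431-143299564, minus).

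RefSeq promoter sequences (GRCm38.p6) matched 5 of the 7 members. The 250 bases before the start of Car4, Cited1, Pdpn, S100g and Msl3 were searched on both strands for the words of endoderm and pluripotency factors. These were GATA (spelled AGATAA, or spelled AGATAG, or spelled TGATAA, or spelled TGATAG), PITX/OTX (spelled TAATCC), SOX (spelled ACAATG, or spelled AACAAT), OCT (spelled ATGCAAAT) and TEAD (spelled GGAATG). Words of the GATA kind stood in 26.5% of all 32851 promoters, SOX words in 16.2%, TEAD in 12.6%, PITX/OTX in 6.25% and OCT in 1.6%. Among the 5 members, Pdpn held 1 GATA word, 242 to 237 bases before its start, and S100g held 1 SOX word, 135 to 130 bases before its start. The windows of Car4, Cited1 and Msl3 held none of these words. Cited1 had 3 RefSeq promoters and Msl3 had 2, of which only the 1 nearest the annotated gene start was searched. The Msl3 window overlapped an annotated exon of the gene. The windows of Pdpn (chr4:143299565-143299814, minus strand) and S100g (chrX:162964600-162964849, minus strand) are shown because they held a match, which is in capitals and lies on the other strand.
Pdpn: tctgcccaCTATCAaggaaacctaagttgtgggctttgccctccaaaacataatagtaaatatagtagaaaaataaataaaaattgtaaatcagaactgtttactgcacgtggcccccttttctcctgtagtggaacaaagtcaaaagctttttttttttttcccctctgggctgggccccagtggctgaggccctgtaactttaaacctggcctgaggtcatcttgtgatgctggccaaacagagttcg
S100g: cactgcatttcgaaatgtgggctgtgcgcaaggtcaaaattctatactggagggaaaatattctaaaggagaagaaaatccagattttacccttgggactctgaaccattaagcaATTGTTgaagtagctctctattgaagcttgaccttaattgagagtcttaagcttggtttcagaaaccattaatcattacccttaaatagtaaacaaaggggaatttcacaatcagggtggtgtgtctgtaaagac

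In bulk RNA, 5 of the 7 genes (Pitx1, Cited1, Msl3, Cryab and S100g) were higher in both endoderm sorts than in Oct4+ cells. Between DP and Pdgfra+ the mean of each gene was lower in DP, and Pdpn passed the test. Levels are given as counts per 1000000 reads (CPM), scaled by TMM, and were compared between libraries and not between genes. In bulk RNA, fewer cells of a type and less RNA per cell cannot be told apart. The sort was checked by its own markers. Pou5f1 (Oct4) was at 17.5 ± 9.0 CPM in Pdgfra+, 229 ± 90.3 in DP and 981 ± 142 in Oct4+, and Pdgfra was at 729 ± 219, 590 ± 153 and 7.43 ± 4.07 CPM (mean ± SD, n = 3 each).

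**Figure D1:**
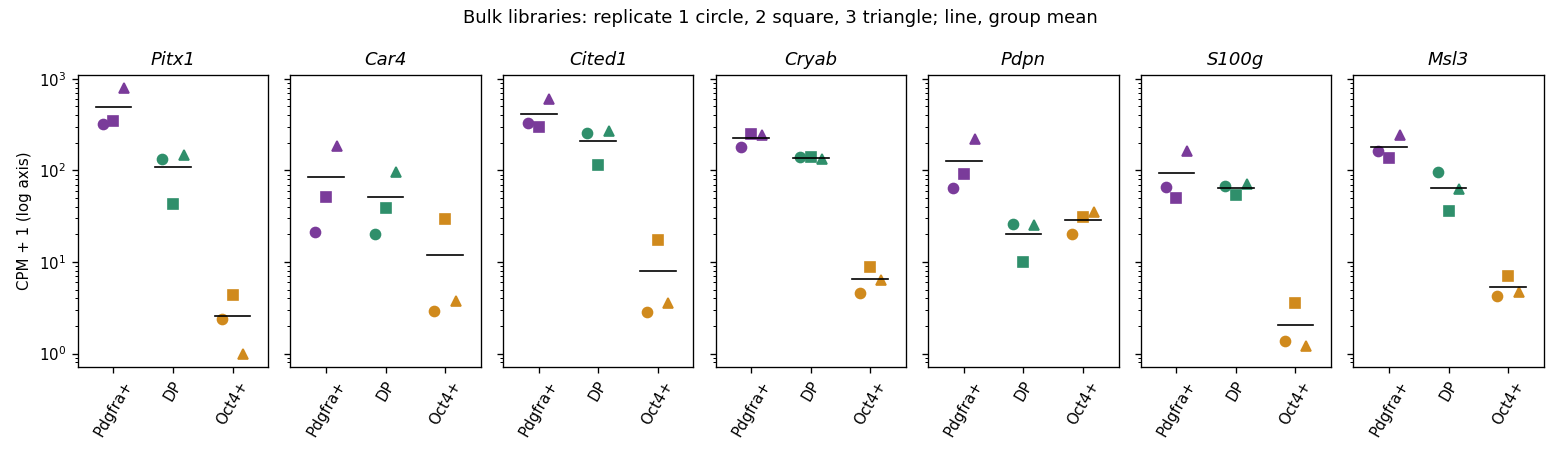
Level of each gene in the 9 bulk libraries as CPM + 1 on a log axis, by sorted group, with the symbol giving the replicate number and the line the group mean. For Pitx1, Cited1, Cryab, S100g and Msl3 all 3 Oct4+ libraries lie below every endoderm library, whereas the groups overlap for Car4 and, between DP and Oct4+, for Pdpn. Of all genes tested, 30.7% have every Oct4+ library below every DP library, and 34.5% have every Oct4+ library below every Pdgfra+ library.

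Pitx1 was at 324, 343 and 792 CPM in the 3 Pdgfra+ libraries, at 131, 41.5 and 148 CPM in DP and at 1.40, 3.35 and 0 CPM in Oct4+. The 3 groups did not overlap, and within each replicate number DP was 2.48, 8.26 and 5.35 times lower than Pdgfra+. Cited1 was at 326, 299 and 607 CPM in Pdgfra+, at 254, 113 and 266 CPM in DP and at 1.86, 16.5 and 2.55 CPM in Oct4+. All DP libraries were below all Pdgfra+ libraries. Msl3 was at 163, 136 and 240 CPM in Pdgfra+, at 94.5, 35.4 and 60.9 CPM in DP and at 3.26, 6.01 and 3.66 CPM in Oct4+, again with no overlap between groups.

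Cryab was the least variable of the list in endoderm. It was at 181, 247 and 242 CPM in Pdgfra+, at 140, 140 and 132 CPM in DP and at 3.57, 7.79 and 5.32 CPM in Oct4+. S100g was at 65.6, 49.5 and 163 CPM in Pdgfra+, at 66.2, 52.6 and 69.7 CPM in DP and at 0.388, 2.56 and 0.222 CPM in Oct4+, so that only the Pdgfra+ replicate 3 library lay above DP.

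Pdpn had a different order from the rest. It was at 63.1, 90.6 and 219 CPM in Pdgfra+, at 24.8, 8.97 and 24.3 CPM in DP and at 19.1, 30.2 and 34.6 CPM in Oct4+, so that DP and Oct4+ overlapped and both were below Pdgfra+. Car4 spread widest within Pdgfra+ and within DP. It was at 20.3, 49.9 and 182 CPM in Pdgfra+, at 19.1, 37.6 and 95.3 CPM in DP and at 1.94, 28.5 and 2.77 CPM in Oct4+, where the replicate 2 library reached into the endoderm range. That library was also the highest of the 3 Oct4+ libraries for Pitx1, Cited1, Cryab, S100g and Msl3, though not for Pdpn. Its 10 endoderm markers summed to 918 CPM against 432 and 537 CPM in the other Oct4+ libraries. The part of these endoderm transcripts in the Car4 value was not tested.

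The first comparison asked how OCT4-positive endoderm differed from OCT4-negative endoderm. With edgeR's quasi-likelihood test (adjusted p below 0.05 over all genes and an absolute log2 fold change above 1.5), 1 of the 7 genes passed, where 3.89% of all genes passed and 0.691% passed as lower in DP. The gene was Pdpn, which was 6.42-fold lower in DP (log2 -2.68, SE 0.51, edgeR adjusted p 0.0206). Its call was lost without Pdgfra+ replicate 3 (-1.99, edgeR adjusted p 0.0697), without DP replicate 2 (-2.34, 0.0660) and without DP replicate 3 (-2.89, 0.0615).

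Pitx1 and Msl3 lay just outside the threshold in this comparison. Pitx1 had a log2 fold change of -2.19 ± 0.62 (edgeR adjusted p 0.0631) and Msl3 one of -1.50 ± 0.35 (0.0369), just short of the fold required. DP and Pdgfra+ libraries with the same number deviated together, and with the replicate number as a block on these 6 libraries both passed, Pitx1 at -2.23 (edgeR adjusted p 0.0184) and Msl3 at -1.55 (0.0191). With the block on all 9 libraries Msl3 passed (-1.53, 0.0422) and Pitx1 did not (-2.20, edgeR adjusted p 0.0671). Msl3 also passed without DP replicate 1 (-1.90, 0.0164).

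The other members did not pass. The log2 fold changes were -0.96 ± 0.63 for Cited1 (edgeR adjusted p 0.364), -0.70 ± 0.22 for Cryab (0.0803), -0.73 ± 1.0 for Car4 (0.681) and -0.56 ± 0.51 for S100g (0.526). All 7 estimates were below 0, with a median of -0.96 against 0.02 over all genes. The values for Car4 and S100g rested on Pdgfra+ replicate 3, without which they were 0.53 and 0.13. In 5 of 7 genes the DP and Pdgfra+ libraries did not overlap and DP was lower, as in 16.8% of all genes.

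Summed markers of endoderm types moved with this comparison. The 10 visceral endoderm markers summed to 2052 to 2309 CPM in Pdgfra+ and to 3868 to 6908 CPM in DP, and 2 of 10, Amn and Cubn, passed as higher in DP. At each replicate number Amn, Cubn, Lrp2, Apob and Ihh were higher in DP, whereas Ttr, Rbp4 and Hnf4a were lower. Rbp4 was at 19.0, 8.57 and 17.6 CPM in Pdgfra+ and at 11.5, 2.24 and 5.62 CPM in DP. Afp and Apoa1 had no single direction. The 9 parietal markers summed to 14740 to 19200 CPM in Pdgfra+ and 9386 to 12890 CPM in DP, and none of 9 passed (edgeR; 2 at an unadjusted p below 0.05, 0 with DESeq2). Most of this sum was Lamc1 and Serpinh1. At replicate 2 Snai1 (38.45 CPM in Pdgfra+, 39.8 in DP) and Nid1 (337 and 342) were not lower in DP. The other parietal markers were lower in DP at each replicate number. The 6 contractile genes were at 61.9 to 240 CPM in Pdgfra+ and 6.84 to 18.8 CPM in DP, with 3 of 6 lower in DP, and their highest sum was in Pdgfra+ replicate 3, the library with the highest Pitx1, Car4, Cited1, Pdpn, S100g and Msl3. The 11 feeder fibroblast genes summed to 48.6 to 142 CPM in Pdgfra+ and 14.9 to 58.9 CPM in DP, with 3 to 6 of 11 at 0 in each Pdgfra+ library. Most of the sum in Pdgfra+ was Fbn1, at 70.2, 139 and 35.2 CPM in replicates 1 to 3. The fibroblast collagens were highest in Pdgfra+ replicate 3 of the 3, with Col1a1 at 2.61 CPM against 0 and 0.399 in replicates 1 and 2 and Col3a1 at 7.62 against 0 and 0.299, and Postn was at 0.939 there and 0 in the others. The 10 epiblast markers, all 10 higher in DP, summed to 152 to 257 CPM in Pdgfra+ and 728 to 1156 CPM in DP. The part of these markers in the members' values was not tested.

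The second comparison set DP against Oct4+, the cells without surface PDGFRA. Here 5 of 7 members passed as higher in DP, against 13.1% of all genes, and 27.7% passed in either direction. The edgeR adjusted p of these 5 was at most 0.000416. The log2 fold changes were 6.04 ± 0.82 for Pitx1, 4.93 ± 0.76 for Cited1 and 3.89 ± 0.41 for Msl3. They were 5.90 ± 0.71 for S100g and 4.63 ± 0.26 for Cryab. Car4 had 2.20 ± 1.07 (edgeR adjusted p 0.105), and 4.44 (0.00866) when Oct4+ replicate 2 was left out. Pdpn had -0.53 ± 0.50 (edgeR adjusted p 0.386). The median of the 7 was 4.63 against -0.04 over all genes.

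The last bulk comparison set Oct4+ against Pdgfra+, which share libraries with the comparisons above. All 7 genes passed as lower in Oct4+, against 14.7% of all genes, and 32.0% passed in either direction. The log2 fold changes were -8.23 ± 0.87 for Pitx1, -6.46 ± 0.72 for S100g, -5.89 ± 0.79 for Cited1, -5.38 ± 0.43 for Msl3, -5.34 ± 0.27 for Cryab and -2.15 ± 0.50 for Pdpn. Pitx1 in Oct4+ replicate 3 had no read, so that its fold change depends on the prior count. Car4 had -2.93 ± 1.09 (edgeR adjusted p 0.0375) although its libraries overlapped, and the call was lost without Pdgfra+ replicate 3 (-1.70, 0.182), Oct4+ replicate 1 (-2.44, 0.0993) or Oct4+ replicate 3 (-2.49, 0.0978). Pdpn fell short of the fold without Pdgfra+ replicate 3 (-1.49, edgeR adjusted p 0.0115). The median of the 7 was -5.38 against 0.01 over all genes.

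Carbonic anhydrases, as relatives of Car4, did not share 1 direction in the same fit. Of 15, 8 were measured, and in Oct4+ against Pdgfra+ 4 were higher and 2 lower. Car12, another membrane-bound form, was at 104 CPM in Pdgfra+, 55.4 in DP and 1.14 in Oct4+ (log2 -6.51 ± 0.73 in Oct4+ against Pdgfra+), whereas the cytosolic Car3 was at 0.276, 0.919 and 16 CPM and Car13 at 1.76, 2.52 and 25.7 CPM. Car2, the abundant cytosolic form, was the 1 carbonic anhydrase of 8 that passed in DP against Pdgfra+, at 227 ± 28.9 against 66.4 ± 24.9 CPM (log2 1.77 ± 0.29, edgeR adjusted p 0.0160). In DP against Oct4+ 2 of the 8 were higher and 2 lower. Of 10 acid and bicarbonate transporters 9 were measured, of which 3 were higher and 1 lower in DP than in Oct4+, and 1 higher and 3 lower in Oct4+ than in Pdgfra+. The anion exchanger Slc4a2 was at 414 CPM in Pdgfra+, 338 in DP and 43.4 in Oct4+, and the lactate transporter Slc16a1 at 785, 529 and 175 CPM. The sodium-proton exchanger Slc9a3 was at 8.32 CPM in Pdgfra+, 2.04 in DP and 0 in all 3 Oct4+ libraries. None of the 9 passed in DP against Pdgfra+ (edgeR; 2 at an unadjusted p below 0.05, 0 with DESeq2).

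Of 7 CITED relatives and partners 6 were measured, of which 1 was higher in DP than in Pdgfra+, 1 lower in DP than in Oct4+, and 2 higher and 1 lower in Oct4+ than in Pdgfra+. Cited2 was lower in Oct4+ than in Pdgfra+ (78.8 against 288 CPM, log2 -1.87 ± 0.48), as Cited1 was, whereas Tfap2c, an AP-2 factor, was higher in Oct4+ (17.6 CPM) than in DP (1.56) and higher in DP than in Pdgfra+ (0.254). Crebbp and Ep300, which encode the acetyltransferases that CITED proteins bind, passed in no comparison. None of the 10 MSL and NSL acetyltransferase subunits passed in any comparison, by edgeR or DESeq2. At an unadjusted p below 0.05 there were 3 in DP against Pdgfra+, 8 in DP against Oct4+ and 9 in Oct4+ against Pdgfra+, with median log2 fold changes of -0.14, -0.44 and 0.41.

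Of 8 small heat shock proteins 4 were measured, of which 1 was higher in DP than in Pdgfra+, 1 higher in DP than in Oct4+, and 2 higher and 1 lower in Oct4+ than in Pdgfra+. Hspb2, which neighbours Cryab in the genome, was at 17.4 CPM in Pdgfra+, 12.8 in DP and 2.23 in Oct4+ (log2 2.52 ± 0.29 in DP against Oct4+). Hspb1 ran the other way, at 55.0, 181 and 312 CPM, and was higher in DP than in Pdgfra+ (1.72 ± 0.31, edgeR adjusted p 0.0180). Of 10 heat shock chaperones none passed in DP against Pdgfra+ (edgeR; 0 at an unadjusted p below 0.05 and 0 with DESeq2), and Hspa1a (2.33 ± 0.48) and Hsp90aa1 (1.60 ± 0.18) were higher in Oct4+ than in Pdgfra+.

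Of 8 podoplanin partners 7 were measured, of which 3 were higher in DP than in Oct4+, and 1 higher and 3 lower in Oct4+ than in Pdgfra+. The hyaluronan receptor Cd44 was at 49.9 CPM in Pdgfra+, 16 in DP and 1.28 in Oct4+, the tetraspanin Cd9 at 552, 582 and 175 CPM and the lectin Lgals8 at 32.8, 28.1 and 8.57 CPM. Each was lower in Oct4+ than in DP and in Pdgfra+. Msn, an actin linker, was higher in Oct4+ than in Pdgfra+ (log2 1.57 ± 0.41). Of 15 S100 and vitamin D calcium genes 9 were measured, with 4 higher and 3 lower in DP than in Oct4+, and 3 higher and 3 lower in Oct4+ than in Pdgfra+. S100a1 (4.11 ± 0.69) was higher in DP than in Oct4+, as S100g was, whereas Vdr, the vitamin D receptor (-3.74 ± 0.82), and S100a16 (-2.83 ± 0.80) were lower. None of the podoplanin partners or of these calcium genes passed in DP against Pdgfra+ (edgeR; 1 and 3 at an unadjusted p below 0.05, 0 and 0 with DESeq2).

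The single-cell libraries showed how the 7 genes were shared among endoderm cells. Of 14179 barcodes, 11623 cells were kept with at least 1000 genes and at most 10% mitochondrial UMIs, and 21 barcodes occurred in both libraries. Cells with Sparc, Col4a1 and Col4a2 summing to 3000 CPM or more, where CPM are UMIs per 1000000 UMIs, were taken as endoderm. They were 1380 of 5324 cells (25.9%) in -4OHT and 6092 of 6299 cells (96.7%) in +4OHT, with 25 and 12 cells within 10% of the cut. Median depth was 15366 and 12649 UMIs per endoderm cell. Pou5f1 was at 15.8 CPM in -4OHT endoderm cells and at 1.93 in +4OHT. The part of Pou5f1 that 4OHT deletes is not given in the sources used here, so that this 3′ count need not report the deletion.

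**Figure D2:**
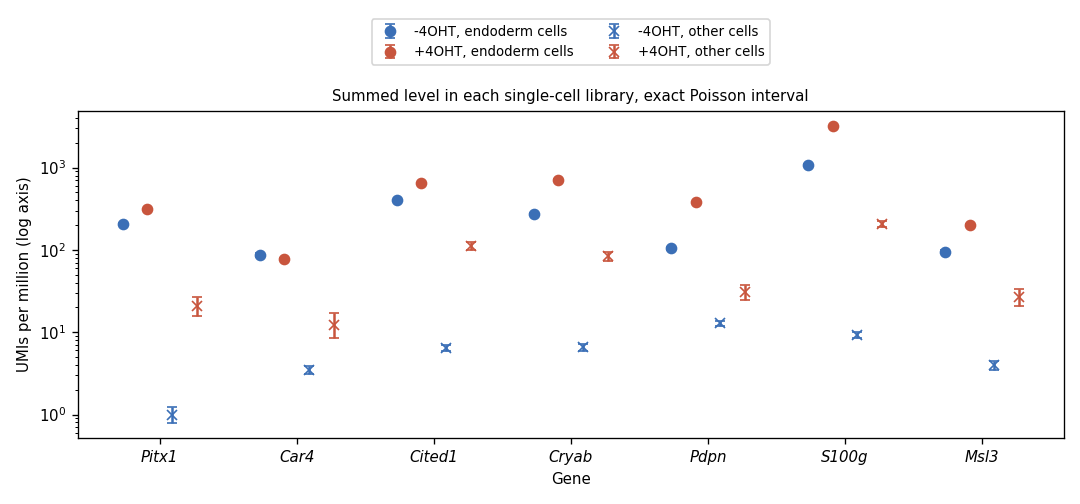
Summed level of each gene in CPM (UMIs scaled to the total) on a log axis, in endoderm cells (circles) and all other kept cells (crosses) of the -4OHT (blue) and +4OHT (red) libraries, with exact 95% Poisson intervals that cover counting error only. Every gene is higher in endoderm cells than in the other cells of its library, where the genes had been selected as genes of the endoderm. All except Car4 are higher in +4OHT than in -4OHT endoderm cells.

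The levels of the members were higher in endoderm cells than in the other cells of each library. The members were selected as genes of the endoderm, so that this is a description. The share of all genes that were higher in endoderm cells was not measured. In -4OHT the 3944 other cells held 0.989 CPM of Pitx1, 3.48 of Car4, 6.41 of Cited1, 6.52 of Cryab, 12.8 of Pdpn, 9.27 of S100g and 3.94 of Msl3, whereas the 1380 endoderm cells held 208, 86.7, 401, 273, 105, 1087 and 94.7. The share of endoderm cells with a Pitx1 UMI was 47.0%, against 1.83% of other cells, whose median depth was higher, at 18780 UMIs. At 5000 UMIs a cell the shares were 40.0% and 0.439%. In +4OHT the gap was narrower, since the 207 other cells held 20.7 CPM of Pitx1, 12.2 of Car4, 111 of Cited1, 84.0 of Cryab, 30.4 of Pdpn, 207 of S100g and 26.5 of Msl3. Of these 207 cells 73.0% had a UMI of S100g, 43.0% of Cited1 and 17.9% of Pitx1, at a median depth of 12521 UMIs.

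In 6 of the 7 genes the level was higher in the +4OHT than in the -4OHT endoderm cells. The ratio of +4OHT to -4OHT was 1.49 for Pitx1 (311 against 208 CPM; exact 95% interval 1.45 to 1.54) and 1.63 for Cited1 (653 against 401; 1.59 to 1.66). It was 2.12 for Msl3 (201 against 94.7; 2.02 to 2.21), 2.6 for Cryab (712 against 273; 2.54 to 2.67) and 2.96 for S100g (3218 against 1087; 2.92 to 3.00). Pdpn had the highest ratio, 3.64 (381 against 105; 3.49 to 3.79). Car4 alone was lower, with a ratio of 0.897 (77.7 against 86.7; 0.854 to 0.943). These intervals cover counting error in 2 libraries and not the spread between cultures. More than 2-fold higher values were seen for 4 of the 7 genes, against 7.93% of the 6807 genes with at least 20 CPM in 1 library, and the median log2 ratio was 1.08 against 0.14 over those genes.

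The 2 libraries differed in how many endoderm cells carried the visceral genes Amn and Cubn, and in -4OHT the members were lower in those cells. Each cell was thinned to 5000 UMIs, which left out 24 and 76 endoderm cells. Amn or Cubn was then detected in 788 of 1356 endoderm cells in -4OHT (58.1%) and in 417 of 6016 in +4OHT (6.93%). In the other cells of -4OHT Amn was detected in 2.68% and Cubn in 1.99%. The 10 visceral markers summed to 1288 CPM in -4OHT and 360 in +4OHT endoderm cells, the 9 parietal markers to 3136 and 5276, the 6 gastrokine and trefoil genes to 19.8 and 397, the 6 contractile genes to 76.4 and 155, and the 11 feeder genes to 108 and 197. Of the visceral markers, Amn, Cubn and Lrp2 were at 295, 426 and 479 CPM in -4OHT and at 3.87, 16.6 and 196 in +4OHT. Apoa1, Apob and Ihh were also lower in +4OHT. Rbp4 (24.7 and 81.9 CPM), Ttr (32.35 and 38.3) and Hnf4a (6.1 and 8.3) were instead higher there. Afp (1.05 and 1.39) did not differ beyond counting error. The 10 epiblast markers summed to 2673 CPM in -4OHT and 668 in +4OHT endoderm cells, and within -4OHT to 3161 CPM in the thinned cells with Amn or Cubn and 1092 in those with neither. Their part in the ratios between libraries, beyond the split by Amn and Cubn that follows, was not tested.

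**Figure D3:**
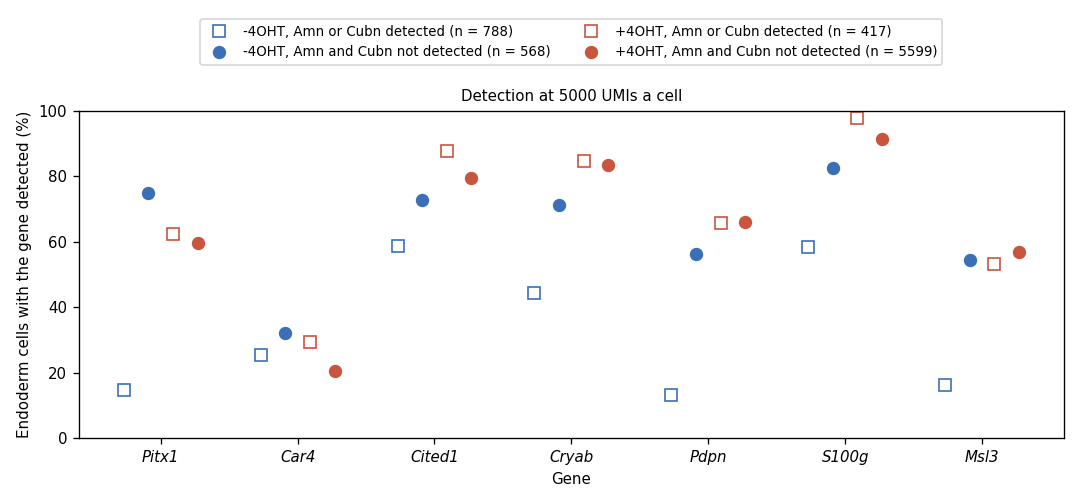
Share of endoderm cells in which each gene was detected at 5000 UMIs a cell, for cells with Amn or Cubn detected (open squares) and with neither detected (filled circles) in the -4OHT (blue) and +4OHT (red) libraries. The Amn or Cubn cells of -4OHT are the lowest of the 4 classes for every gene except Car4, whose lowest class is the +4OHT cells with neither.

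In -4OHT, endoderm cells without detected Amn and Cubn held more of each of the 7 genes. Pitx1 was at 514 CPM in the 568 such cells and at 85.8 in the 788 cells with Amn or Cubn, a ratio of 5.99 (exact 95% interval 5.32 to 6.77). The ratio was 5.06 for Pdpn (258 against 51.0), 4.26 for Msl3 (203 against 47.7), 3.08 for S100g (2256 against 732) and 2.15 for Cryab (439 against 205). It was smallest for Car4 (1.69; 124 against 73.6) and Cited1 (1.64; 631 against 384). In +4OHT the same ratio ran from 0.702 for Car4 to 1.20 for Cryab. The mean number of the 7 genes detected was 2.31 in the Amn or Cubn cells and 4.45 in the other endoderm cells of -4OHT, against 4.81 and 4.58 in +4OHT. These other -4OHT cells also held more of the parietal (4787 against 2751 CPM), contractile (168 against 15.5) and feeder (186 against 26.65) markers. Their visceral (348 against 1795 CPM), epiblast and trophectoderm (9.86 against 25.1) sums were lower. The share of all genes that were higher in them was not measured.

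Among cells with Amn or Cubn detected all 7 genes were higher in +4OHT, Car4 included (97.4 against 73.6 CPM; ratio 1.32, exact 95% interval 1.10 to 1.59). The ratio was 3.73 for Pitx1 (3.27 to 4.26), 2.29 for Cited1, 2.74 for Cryab, 3.83 for Msl3, 5.76 for S100g and 6.92 for Pdpn. The class was not alike in the 2 libraries, so that these ratios do not compare matched cells. The share of all genes higher in +4OHT within this class was not measured. Before thinning, Amn had 7029 UMIs in 711 endoderm cells of -4OHT and 339 UMIs in 208 of +4OHT. Cubn had 10133 UMIs in 879 cells and 1453 UMIs in 860 cells.

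Among cells without detected Amn and Cubn the 2 libraries lay closer together for 5 genes. The ratio of +4OHT to -4OHT was 1.06 for Cited1, 1.0 for Msl3 with an interval of 0.923 to 1.10, 1.53 for Cryab, 1.55 for Pdpn and 1.49 for S100g. For Pitx1 the direction turned, with 308 CPM in +4OHT and 514 in -4OHT (ratio 0.599; 0.567 to 0.634), and for Car4 the difference widened (68.3 against 124; 0.550; 0.490 to 0.618). When cells were split instead by the other 8 visceral markers, those with fewer than 3 such UMIs had ratios of 0.914 for Pitx1, 0.687 for Car4 and 1.36 to 2.31 for the other 5. These splits were chosen after the data were seen.

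Co-detection was measured in the thinned endoderm cells as the number of cells with both genes over the number that the product of the 2 shares gives. All 21 pairs had a ratio above 1 in both libraries, but pairs of other genes were not measured beside them. The ratio ran from 1.10 to 1.91 in -4OHT and from 1.0 to 1.24 in +4OHT. Some pairs were close to 1 in +4OHT, such as Cryab and S100g (1.003, 4641 cells against 4625 from the product) and Cited1 and Cryab (1.01). No pair was above 1.5 in both libraries. In +4OHT the genes were so common that 6 of 21 pairs could reach 1.5, and 15 of 21 could in -4OHT. The 3 pairs above 1.5 in -4OHT were Pitx1 and Pdpn (1.91, 324 cells against 170 from the product), Pdpn and Msl3 (1.72) and Pitx1 and Msl3 (1.69).

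The odds ratio, which is not limited by high shares, was read for the same pairs, with no interval. In -4OHT it was highest for Pitx1 and Pdpn (10.6), Pitx1 and S100g (7.92), Pdpn and S100g (5.90) and Pitx1 and Msl3 (5.74). In +4OHT the highest were Cited1 and S100g (5.34), Car4 and S100g (3.61) and Car4 and Cryab (3.35), while Pitx1 and Pdpn had 1.38. S100g was detected in 92.0% of these +4OHT cells, so that its odds ratios rest on the small part without it. The median over the 21 pairs was 3.05 in -4OHT and 1.56 in +4OHT. Among -4OHT cells without detected Amn and Cubn the median was 2.28, the odds ratio of Pitx1 and Pdpn was 2.36, and that of Cited1 and S100g, at 5.07, was close to the 5.16 of such +4OHT cells.

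**Figure D4:**
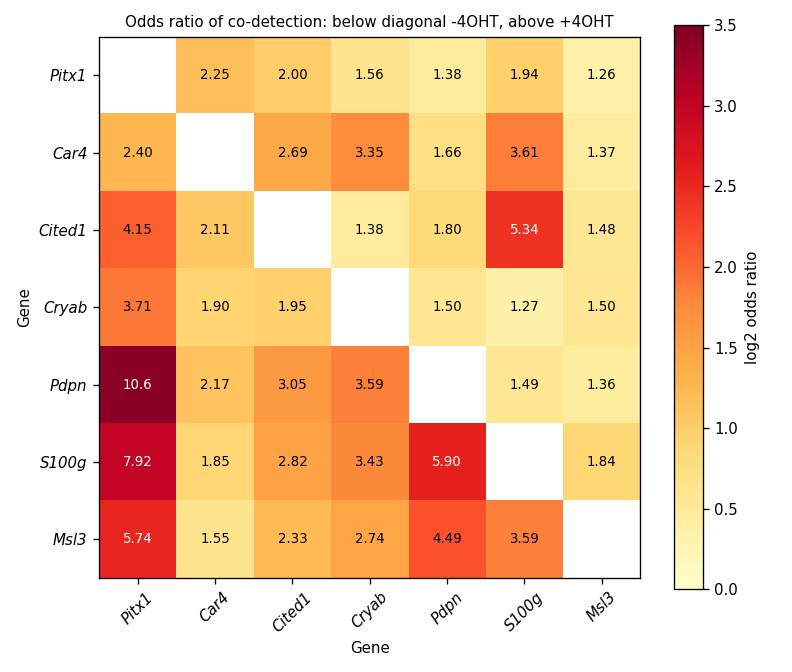
Odds ratio of co-detection for each pair of genes in endoderm cells thinned to 5000 UMIs, below the diagonal for -4OHT (1356 cells) and above it for +4OHT (6016 cells), coloured by its log2. The pair of Pitx1 and Pdpn (10.6) is highest in -4OHT, and the pair of Cited1 and S100g (5.34) is highest in +4OHT.

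The number of genes per cell spread further than independent genes would give. None of the 7 was detected in 7.96% of -4OHT endoderm cells, where the product of the shares gives 0.997%, and all 7 in 4.72%, where it gives 0.280%. In +4OHT none was detected in 0.349% and all 7 in 6.25%, where the product gives 2.92%. Pitx1, Car4 and Cited1 were detected together in 188 of 1356 cells in -4OHT (13.9%, exact binomial 95% interval 12.1 to 15.8%) and 860 of 6016 in +4OHT (14.3%, 13.4 to 15.2%), which was 1.90 and 1.41 times the product of the shares.

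**Figure D5:**
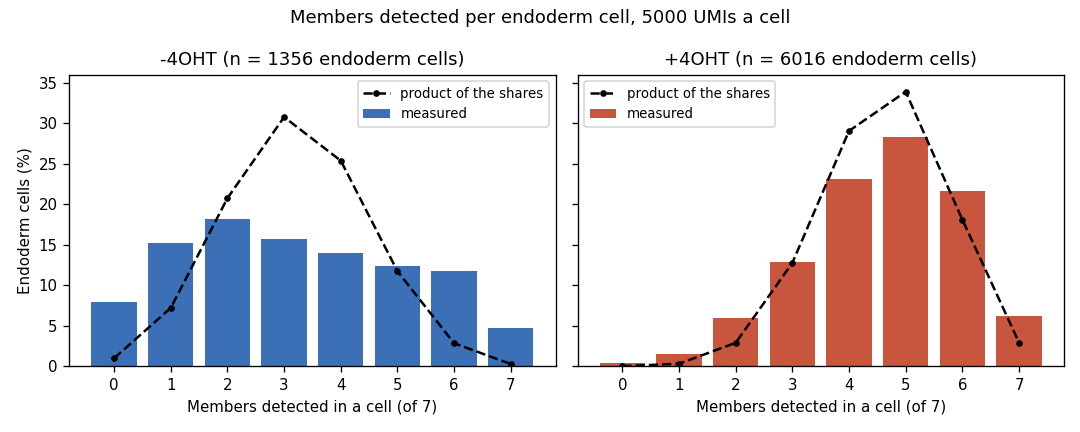
Share of endoderm cells by the number of the 7 genes detected at 5000 UMIs a cell (bars), with the share that the product of the single-gene shares gives (dashed line), for -4OHT (left) and +4OHT (right). The -4OHT cells spread from 0 to 7 genes, with 7.96% at 0 and 4.72% at 7, whereas 5 genes are most common in +4OHT (28.3%).

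Car4 was detected both with and without Pitx1. Pitx1 and Car4 were detected together in 212 cells (15.6%) of -4OHT and 946 (15.7%) of +4OHT, and these cells held 918 and 919 CPM of Cited1 and 3166 and 3885 of S100g. Car4 without Pitx1 was detected in 172 cells of -4OHT (12.7%). These held 472 CPM of Amn and 638 of Cubn, against 29.2 and 89.6 in the cells with both, and 431 of S100g. The 330 cells of -4OHT with Pitx1 and no Car4 held 22.4 CPM of Amn, 54.5 of Cubn and 2271 of S100g, and the 642 with neither gene held 416, 546 and 566. Amn and Cubn were thus lower in the -4OHT cells with Pitx1, whether or not Car4 was detected. In the 333 cells of +4OHT with Car4 and no Pitx1, Amn was at 2.40, Cubn at 26.4 and S100g at 2829 CPM.

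The genes whose levels followed the members most closely over endoderm cells were read among 10643 genes, with the members left out. Correlations of log-normalized thinned counts across cells of 1 library share depth and cell type makeup and are given as a description. Over 1356 and 6016 cells the closest to Pitx1 were Flt1, the VEGF receptor (r = 0.671 in -4OHT and 0.202 in +4OHT), the imprinted Peg10 (0.573 and 0.226) and Cyp26a1, which degrades retinoic acid (0.579 and 0.213). The closest to Cited1 were Cyp26a1 (0.442 and 0.221), Pth1r, the parathyroid hormone receptor of parietal endoderm (0.310 and 0.231), and Flt1 (0.372 and 0.108). Those closest to Car4 were weaker and are named as Bex1 (0.159 and 0.225), 2010204K13Rik (0.204 and 0.155) and Palm3 (0.160 and 0.156). Among all genes, members included, S100g was the closest to Cited1 (0.513 and 0.446) and Pitx1 the closest to Car4 (0.260 and 0.188). Cryab did not follow S100g (0.352 and -0.051) or Cited1 (0.216 and -0.002) in +4OHT. Car4 and S100g had 0.208 and 0.092, and Pitx1 and Cited1 had 0.415 and 0.246.

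Feeder-like cells, with Col1a1, Col1a2 and Col3a1 at 1000 or more CPM, were 8 of the -4OHT and 26 of the +4OHT endoderm cells. Without them the ratios of +4OHT to -4OHT stayed within the counting intervals given above for all 7 genes. Among the S100 and vitamin D calcium genes, S100a1 (67.5 CPM in -4OHT and 243 in +4OHT) and S100a13 (45.2 and 109) were more than 2-fold higher in +4OHT endoderm cells. Among the carbonic anhydrases, transporters, podoplanin partners and chaperones, Car2 (176 and 86.3), Slc16a3 (57.2 and 15.7), Msn (35.7 and 12.4) and Hsph1 (216 and 105) were more than 2-fold lower. Of the 9 MSL and NSL subunits with at least 20 CPM in 1 library, none differed by 2-fold.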

How the data were processed

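The bulk table held raw read counts per gene symbol for 48952 genes in 9 libraries (8019631 to 11642571 reads), deposited by the authors from stranded single-end libraries. Which aligner and counter were used is not given in the sources used here. Single-cell matrices held UMI counts that the authors deposited from Cell Ranger (6.1.2 in the file header, mm10; 32285 genes). Bulk counts were tested with edgeR 4.0.16 (filterByExpr, TMM, quasi-likelihood test, 1 fit of 9 libraries, 14185 genes, Benjamini-Hochberg adjustment) in R 4.3.3. Replicates share a line, so that p-values measure the spread between these libraries, which may be technical. Replicate numbers paired DP with Pdgfra+ libraries by the data (correlation of deviations 0.271, 0.477 and 0.321), and the fit was repeated with that block. On counts simulated for DP against Pdgfra+, the script was tested and recovered known changes.

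Single cells were kept with at least 1000 genes and at most 10% mitochondrial UMIs, and thinned to 5000 UMIs for shares and pairs (scanpy 1.11.5, scipy 1.17.1). Intervals are exact 95% intervals that cover counting error only. Scrublet marked 219 barcodes in -4OHT (3.18%) and 2 in +4OHT (0.0275%), so that it did not work in the latter, and doublets were kept in the main values. The members and gene lists were chosen with earlier results of these data known. Genes named are the members, Pou5f1 and Pdgfra as checks, from each list at most 3 called genes, those that changed most in a comparison, and the 3 genes closest to each of Pitx1, Car4 and Cited1 (correlation averaged over the libraries, detected in at least 1% of endoderm cells). Alternatives were DESeq2 1.42.0, other filters on genes and cells, other endoderm cuts, the block, and each replicate left out. Amn, Cubn, the other visceral markers, Crebbp and Ep300, and the genes of the single-cell list counts, were named after their values were seen. The values of 1 listed gene are not reported here.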

Additional observations from a re-analysis of the deposited data

How the results depend on the processing

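Between DP and Pdgfra+ 552 genes passed; the count was 870 with DESeq2, 1023 without a filter on low counts, 338 with a stricter filter and 57 to 728 with a library left out. Leaving out Pdgfra+ replicate 3 gave 57 genes, Pdgfra+ replicate 2 gave 148, Pdgfra+ replicate 1 gave 363, DP replicate 2 gave 124 and DP replicate 3 gave 121. Of the 7 members 1 passed, 2 without the filter (Pitx1 being added), and 0 to 2 with a library left out. With the replicate block 2 passed when it was fitted to all 9 libraries and 3 when it was fitted to the 6 libraries compared. The number of all genes that passed with the block is not given here, so that these block counts have no background. With a library left out, the log2 fold change ranged from -1.57 to 0.53 for Car4 and from -0.87 to 0.13 for S100g, and both reversed without Pdgfra+ replicate 3. With the stricter filter 2153 genes passed in DP against Oct4+ and 2476 in Oct4+ against Pdgfra+, since fewer genes were tested. There the replicate numbers did not pair the libraries, and the block made Car4 pass in DP against Oct4+ (log2 2.84, edgeR adjusted p 0.0386), as did no filter (2.24, 0.00268). The cause of the other shifts was not tested.

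In the single-cell libraries other filters on cells and other endoderm cuts gave ratios of +4OHT to -4OHT of 1.04 to 1.56 for Pitx1, 0.816 to 0.918 for Car4, 1.34 to 1.68 for Cited1, 2.16 to 2.69 for Cryab, 2.68 to 3.79 for Pdpn, 2.38 to 3.08 for S100g and 1.55 to 2.19 for Msl3. The lowest Pitx1 ratio came with at least 2000 genes and at most 5% mitochondrial UMIs. The lowest Car4 ratio came without the doublets that Scrublet called, which were 115 endoderm cells in -4OHT and 1 in +4OHT. Pitx1 reversed (0.599) in thinned cells without detected Amn and Cubn, a split added after the data were seen. The main ratio was of cells that were not thinned. The count of pairs above 1.5 in both libraries was 0 in every alternative run, but few pairs could reach 1.5, so that this count is no check of stability. In cells without detected Amn and Cubn, 3 of 21 pairs could in -4OHT and 6 of 21 in +4OHT. Without thinning, every gene except Car4 was detected in at least 77.5% of +4OHT endoderm cells, and no pair could.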
